A study of Mus musculus with 12 samples.

Results

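Genes that encode 7 subunits of the GABA-A receptor were followed across the hippocampus of 12 male mice. Gabra2, Gabra3, Gabra4, Gabra5, Gabrb1, Gabrb2 and Gabrd were taken by name from the 33250 gene symbols of the deposited count table, and no measured value entered that choice. They cover 4 of the alpha subunits, 2 of the beta subunits and the delta subunit. A further 12 subunit genes of the same family were also in the table and were used only for comparison.

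The study asked whether loss of the microRNA cluster that spans Mir379 to Mir410 changes gene expression in the hippocampus. By their labels, 6 animals were conditional knockouts (cKO) in which Cre recombinase removes the cluster from cells with a history of Emx1 expression. Emx1 marks the glutamatergic neurons of the hippocampus and cortex and part of their glia, so interneurons and vessel cells of a cKO animal should keep the cluster. The other 6 animals were wild type (WT). The labels do not say whether the WT animals carried the Cre or the unrecombined allele, and they give neither age nor strain. Polyadenylated RNA of the whole hippocampus was sequenced from each animal, so fewer cells of a type and less RNA per cell cannot be told apart in any value that follows.

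GABA-A receptors are chloride channels opened by GABA, the main inhibitory transmitter of the brain, and are built from 5 subunits around a central pore. Most hold alpha and beta subunits, between which GABA binds, together with a gamma or a delta subunit. The gamma-containing receptors sit largely at synapses and carry fast inhibition. Receptors with delta, or with alpha5, sit largely outside synapses and carry a steady, tonic current. In the hippocampus alpha5 is best known from pyramidal cells and the pairing of alpha4 with delta from dentate granule cells.

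Library totals ran from 44803793 to 51095816 counts in cKO and from 42360624 to 50804084 counts in WT. Each level below is a TMM-scaled CPM, that is, the gene's counts relative to a fixed library total after the libraries were scaled to each other. Hippocampal markers were present in every library. Prox1, of dentate granule neurons, averaged 103 ± 18.2 CPM in cKO and 119 ± 13.0 CPM in WT (SD, n = 6 each). Wfs1, of CA1 pyramidal neurons, averaged 158 ± 30.2 CPM in cKO and 157 ± 26.6 CPM in WT. Gabra6, the alpha subunit of cerebellar granule cells, stayed at or below 0.0426 CPM in cKO and 0.0437 CPM in WT, and was too low to test.

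Several libraries stood apart. Mirg, a host transcript of the cluster, was at 23.6 CPM in the library labelled cKO 1, at 32.6 to 46.4 CPM in the other 5 cKO libraries and at 28.4 to 34.1 CPM in WT, so its polyadenylated RNA was not lost in cKO. The labels leave out which bases of the cluster were deleted, and the table holds no count of the mature miRNAs. B830012L14Rik, a non-coding gene that the annotation places just before Mir379, was at 0.788 CPM in the library labelled cKO 1 and at 17.4 to 25.8 CPM in cKO 2 to cKO 6, where WT held 0.310 to 0.865 CPM. Emx1 was at 9.14 CPM in that library, while the remaining cKO libraries held 5.91 to 6.84 CPM and WT 8.38 to 9.60 CPM. The library labelled cKO 1 therefore lay with WT in B830012L14Rik and Emx1, while its Mirg level was below that of every WT library. The summed choroid plexus markers were lowest in cKO 4, WT 2 and WT 3, at 56.9, 87.7 and 575 CPM, against 2427 to 8275 CPM in the other 9 libraries. Values without these libraries are given where they change a result.

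No subunit passed the test between genotypes. In the edgeR quasi-likelihood test with Benjamini-Hochberg adjustment over 19325 genes, 0 of the 7 genes had an adjusted p below 0.05, where 0.0103% of all genes tested did. By direction alone, 6 of the 7 had a lower mean in cKO, against 46.6% of all genes tested. Their median log2 fold change of cKO over WT was -0.04, and that of all genes tested was 0.01. At an unadjusted p below 0.05, Gabrb1 and Gabrb2 were lower in cKO, which is 2 of the 7 genes, where 6.34% of all genes tested were lower at that level, 3.2% were higher and 9.54% differed in either direction. All 7 genes had overlapping ranges in cKO and WT, and 0.223% of all genes tested had every cKO library below every WT library.

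**Figure D1:**
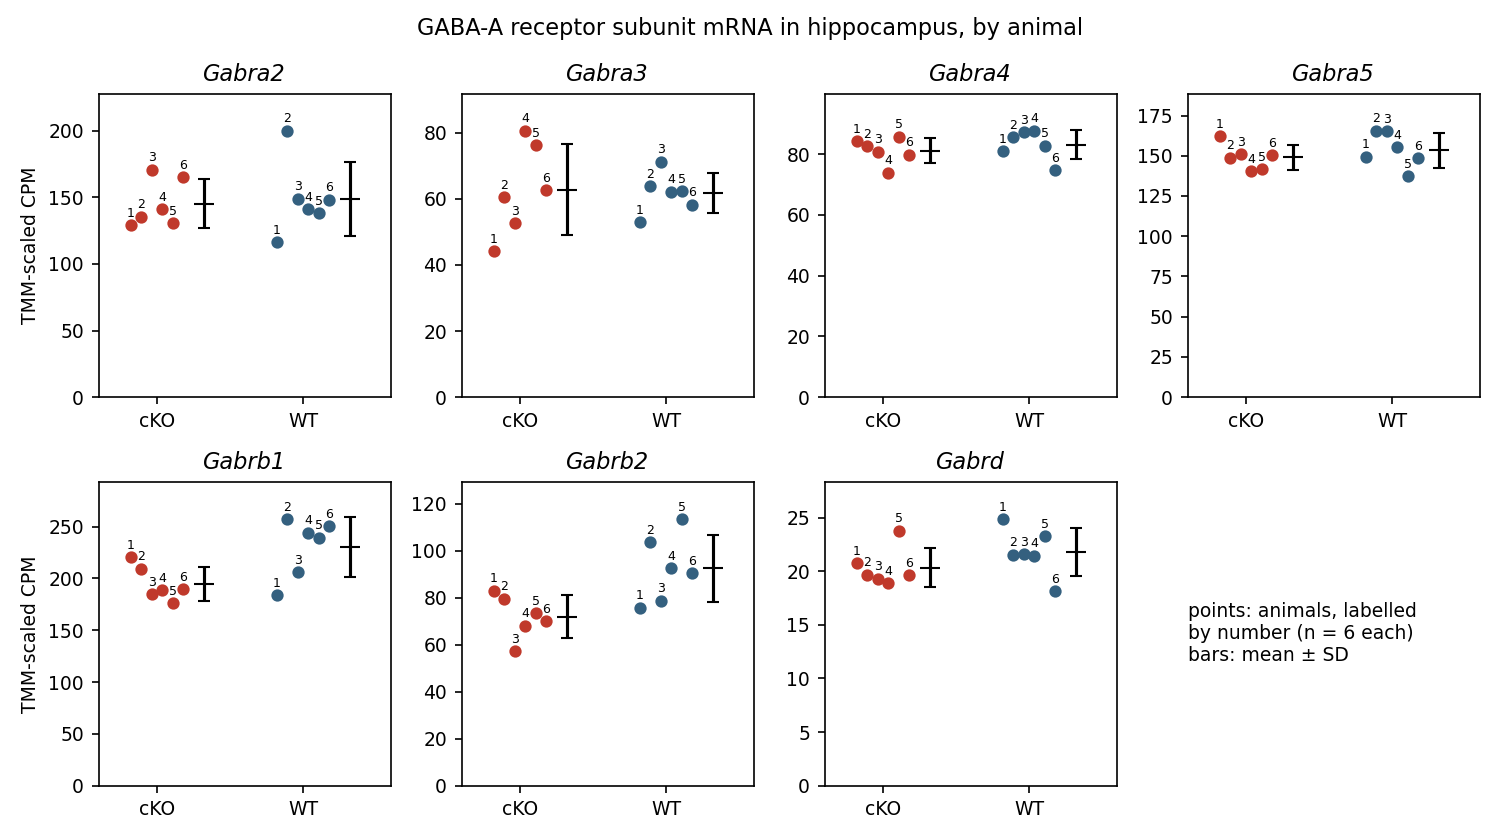
Level of the 7 subunit genes in each animal, in TMM-scaled CPM on axes that start at 0, with cKO left of WT and the mean ± SD of 6 animals beside the points. The cKO and WT points overlap for every gene, and the mean of Gabrb2 was 71.9 CPM in cKO, against 92.4 CPM in WT.

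**Figure D2:**
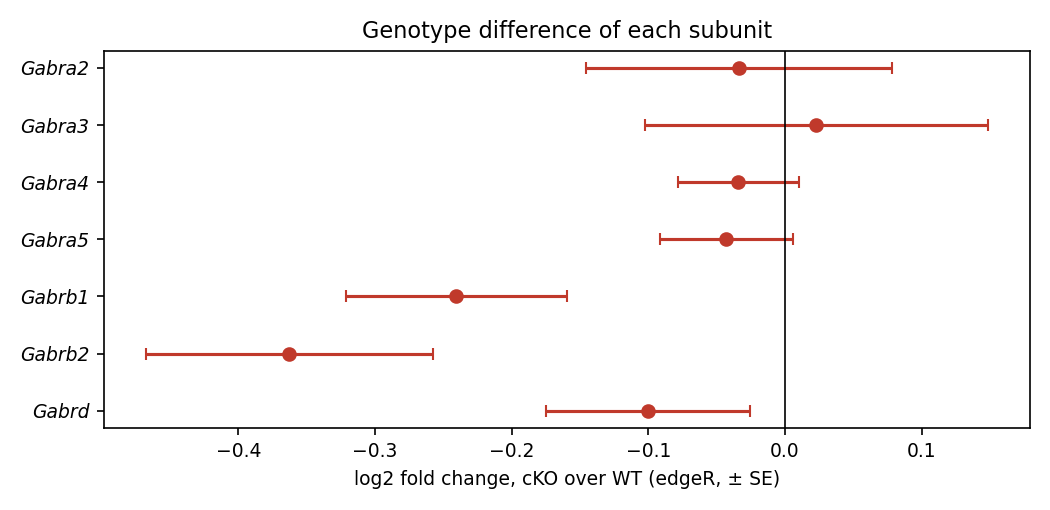
Log2 fold change of cKO over WT from edgeR for the 7 subunit genes, with error bars of 1 standard error. Gabrb2 at -0.36 and Gabrb1 at -0.24 lie farthest below 0 among the 7.

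Gabra5 encodes the alpha5 subunit of extrasynaptic receptors on pyramidal cell dendrites. Its level was 140.4 CPM at the lowest, 149.5 at the median and 162 at the highest in cKO, against 137, 152.5 and 165.5 CPM in WT. The WT range enclosed the whole cKO range. The log2 fold change was -0.04 ± 0.05 (SE), with an adjusted p of 0.837 by edgeR. Across animals of a genotype Gabra5 had a coefficient of variation (CV) of 5.29% in cKO and 7.07% in WT. The median CV of the 10331 genes with at least 10 CPM was 5.35% in cKO and 5.58% in WT. Gabra5 lay above 49.1% of these genes in cKO and above 67.6% in WT.

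Gabra2 encodes the alpha2 subunit, which is enriched at the axon initial segment of pyramidal cells and takes part in the response to anxiolytic benzodiazepines. It was lowest at 129, median 138 and highest at 171 CPM in cKO, against 116, 145 and 200.0 CPM in WT. All 6 cKO animals again lay inside the WT range, which ran between WT 1 and WT 2. On the log2 scale the fold change was -0.03 ± 0.11 (SE), with an adjusted p of 0.952 by edgeR. Gabra2 had a CV of 12.4% in cKO and 18.6% in WT, above that of 90.4% of the genes with at least 10 CPM in cKO and 96.0% in WT. Without WT 2, which had the highest value, the log2 fold change was 0.06.

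Gabra4 encodes the alpha4 subunit, which makes receptors insensitive to classical benzodiazepines. Its level was lowest at 73.9, median 81.7 and highest at 85.75 CPM in cKO, against 74.7, 84.15 and 87.7 CPM in WT. The groups covered nearly the same span. Its log2 fold change was -0.03 ± 0.04 (SE), and the adjusted p was 0.866 by edgeR. With a CV of 5.18% in cKO and 5.84% in WT, Gabra4 was the steadiest of the 7 genes in both genotypes.

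Gabra3 encodes the alpha3 subunit, which is better known from the thalamic reticular nucleus, cortex and monoaminergic cells than from hippocampal pyramidal cells. In cKO it was lowest at 44.1, median 61.55 and highest at 80.5 CPM, against 53.0, 62.25 and 71.2 CPM in WT. The means were nearly the same, at 62.8 ± 13.8 CPM in cKO and 61.8 ± 6.07 CPM in WT (SD, n = 6 each), but the spread was not. The library labelled cKO 1 and cKO 3 lay below every WT animal, and cKO 4 and cKO 5 lay above every WT animal. The CV was 22.0% in cKO, above that of 97.5% of genes of at least 10 CPM, and 9.83% in WT, above that of 84.2%. Counting noise alone would give a CV of 1.83% in cKO. The difference in spread between the genotypes was not tested. The log2 fold change was 0.02 ± 0.13 (SE), with an adjusted p of 0.97 by edgeR, and its sign changed when any of 4 single animals was left out.

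Gabrb1 and Gabrb2 encode beta subunits, which line the GABA site with the alpha subunits and are needed for the receptor to reach the surface. Gabrb1 had the highest counts per gene of the 7. It was lowest at 176, median 189 and highest at 220.4 CPM in cKO, against 184, 242 and 257 CPM in WT. Every cKO animal lay below the WT mean, and 4 of the 6 WT animals lay above the highest cKO animal, but WT 1 and WT 3 lay among the cKO animals. The means were 195 ± 16.6 CPM in cKO and 230.2 ± 28.8 CPM in WT (SD, n = 6 each). The log2 fold change was -0.24 ± 0.08 (SE), with an adjusted p of 0.375 and an unadjusted p of 0.0104 by edgeR.

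Gabrb2 showed the largest difference of the 7. It was lowest at 57.2, median 71.7 and highest at 83.0 CPM in cKO, against 75.65, 91.6 and 113 CPM in WT. Again 4 of the 6 WT animals lay above the highest cKO animal, and 4 of the 6 cKO animals lay below the lowest WT animal. The means were 71.9 ± 9.14 CPM in cKO and 92.4 ± 14.4 CPM in WT (SD, n = 6 each). Its log2 fold change was -0.36 ± 0.10 (SE), with an adjusted p of 0.353 and an unadjusted p of 0.00406 by edgeR.

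The highest cKO value of both beta genes was that of the library labelled cKO 1. Without that library the log2 fold change was -0.42 for Gabrb2, with an adjusted p of 0.122 by edgeR, and -0.29 for Gabrb1, with an adjusted p of 0.151. Without the 3 libraries lowest in choroid plexus genes it was -0.36 for Gabrb2 and -0.23 for Gabrb1. Neither gene passed in either case. Of the alpha genes, 3 turned sign without those 3 libraries, with log2 fold changes of 0.10 for Gabra2, 0.02 for Gabra4 and 0.03 for Gabra5.

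Gabrd encodes the delta subunit of extrasynaptic receptors, which in the dentate gyrus pairs with alpha4. It had the lowest level, at 18.9 CPM lowest, 19.7 median and 23.8 highest in cKO, against 18.1, 21.6 and 24.8 CPM in WT. All cKO animals lay within the WT range. The log2 fold change was -0.10 ± 0.07 (SE), with an adjusted p of 0.722 by edgeR. The value of cKO 5 lay apart from the other 5 cKO animals, at 18.9 to 20.7 CPM.

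Levels of different genes were compared per kilobase of the longest annotated coding transcript, with the length taken from the annotation and not from these libraries. Gabra5 was highest, at 55.8 ± 2.95 CPM per kb in cKO and 57.5 ± 4.06 in WT (SD, n = 6 each). Gabra2 came next, at 24.9 ± 3.09 CPM per kb in cKO and 25.4 ± 4.74 in WT. Gabra5 exceeded Gabra2 in 12 of 12 animals, 2.25 times by the mean, and the ranges did not overlap in either genotype.

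Next by the mean over all animals was Gabrb2. It was at 18.02 ± 2.29 CPM per kb in cKO and 23.2 ± 3.61 in WT. Gabra4 was at 19.8 ± 1.02 CPM per kb in cKO and 20.2 ± 1.18 in WT, and the order of these genes differed between animals, with Gabrb2 higher in 5 of 12. Gabra2 exceeded Gabrb2 in 11 of 12 animals, with ranges that overlapped in WT and not in cKO. Gabra3 was at 17.1 ± 3.76 CPM per kb in cKO and 16.9 ± 1.66 in WT, and Gabrb1 at 14.2 ± 1.21 in cKO and 16.8 ± 2.10 in WT. Gabra4 exceeded Gabra3 in 11 of 12 animals, and Gabra3 exceeded Gabrb1 in 7 of 12. The ranges of each of these neighbours, from Gabrb2 down to Gabrb1, overlapped in both genotypes. Gabrd was lowest, at 10.6 ± 0.935 CPM per kb in cKO and 11.4 ± 1.17 in WT, and lay below Gabrb1 in 12 of 12 animals without overlap.

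This order depends on the length used, since the longest Gabrb1 transcript of 13.7 kb is nearly all 3′ UTR and holds a coding part of 1.42 kb. Per kilobase of coding length Gabrb1 was first, at a mean of 149.5 CPM per kb over the 12 animals, and Gabra5 and Gabra2 stood level at 109. Gabrd was lowest under all 4 lengths tried, and Gabra5 was highest under 3 of the 4.

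**Figure D3:**
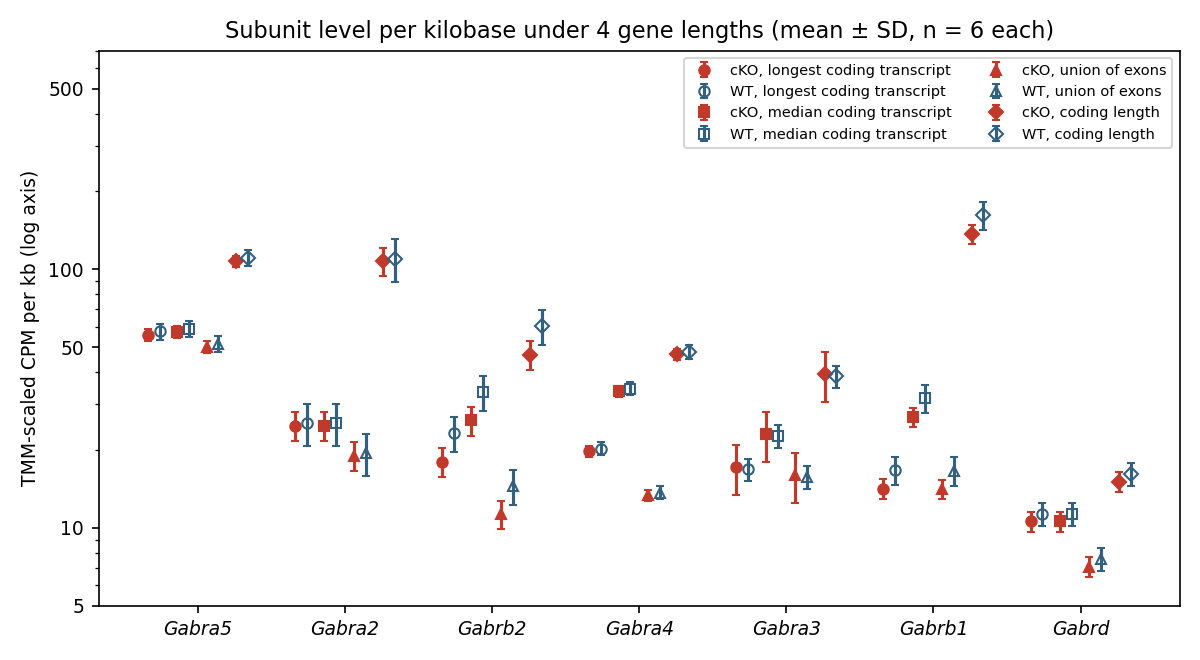
Level of the 7 subunit genes in TMM-scaled CPM per kb on a log axis, under 4 ways of taking gene length, with cKO left of WT and error bars of 1 SD over 6 animals. Gabrb1 moves from 15.5 CPM per kb over the longest transcript to 149.5 over the coding length, while Gabrd stays lowest under each length.

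The balance between subunits was tested within each animal, where library scaling and gene length cancel. Among the 21 pairs of the 7 genes, 0 had a log2 ratio that differed between genotypes after adjustment over the 21, by a two-sided exact permutation test whose smallest possible p is 0.00216. At an unadjusted p below 0.05 there were 2 pairs, 9.52% of the 21, both with Gabrb2 as the denominator. That number rests on single libraries: it became 6 when the library labelled cKO 1 was left out, 5 without WT 1 or WT 3, 0 without cKO 3, and 1 without cKO 6, WT 2, WT 4, WT 5 or WT 6. No pair passed after adjustment in any of these cases. The count of Gabra4 was 1.02 to 1.41 times that of Gabrb2 in cKO, against 0.731 to 1.11 times in WT. The mean log2 ratio was 0.18 ± 0.17 in cKO and -0.14 ± 0.24 in WT (SD, n = 6 each). The exact permutation p was 0.0238, with an adjusted p of 0.292. For Gabra5 over Gabrb2 the mean log2 ratio was 1.06 ± 0.18 in cKO and 0.74 ± 0.28 in WT, with an exact permutation p of 0.0346 and an adjusted p of 0.292.

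Within the alpha or the beta class, 0 pairs had an unadjusted p below 0.05. Gabrb1 over Gabrb2 had a mean log2 ratio of 1.44 ± 0.14 in cKO and 1.32 ± 0.14 in WT, with an exact permutation p of 0.169 and an adjusted p of 0.394. Gabra4 over Gabra5 varied little, at 0.520 to 0.605 in cKO and 0.504 to 0.603 in WT. Gabra4 over Gabrd, the pair of tonic receptors in the dentate gyrus, was 3.61 to 4.20 in cKO and 3.26 to 4.13 in WT.

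**Figure D4:**
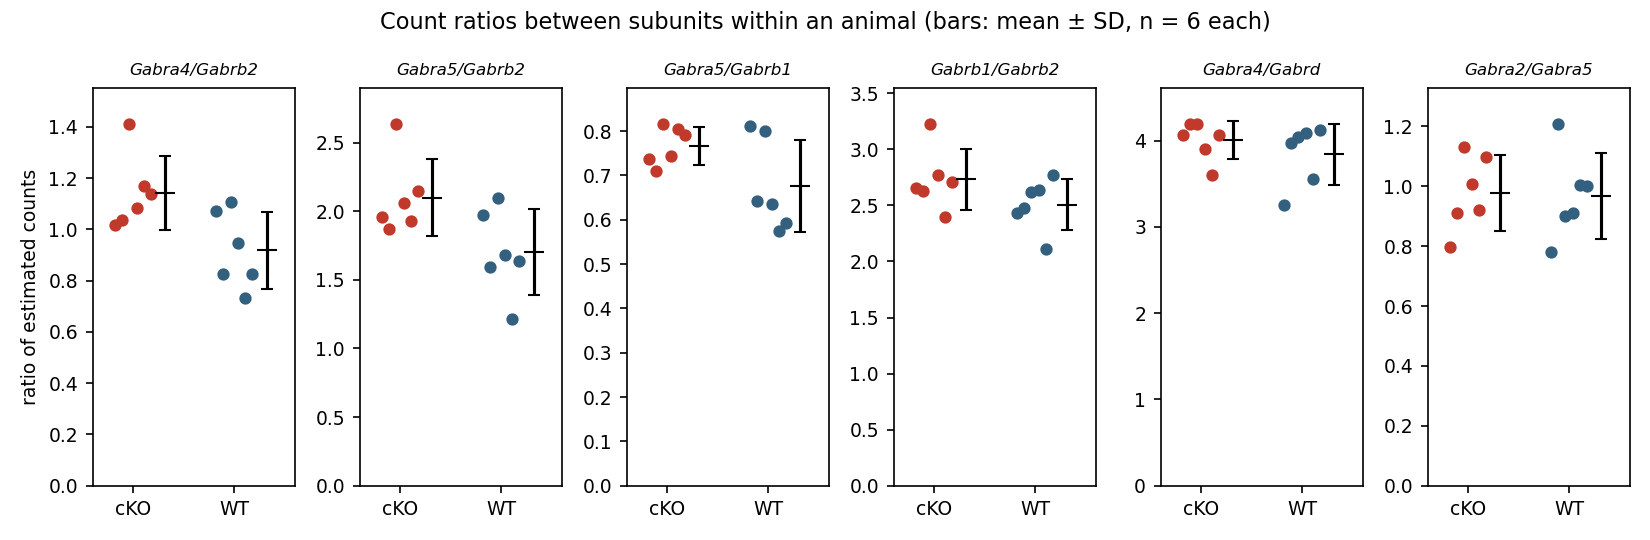
Count ratios within each animal for pairs of subunit genes, on axes that start at 0, with cKO left of WT and the mean ± SD of 6 animals. The Gabra4 to Gabrb2 ratio spans 1.02 to 1.41 in cKO and 0.731 to 1.11 in WT.

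Across the 12 animals the beta genes moved together. Gabrb1 and Gabrb2 had a Pearson r of 0.854 and a Spearman rho of 0.846 in log2 TMM-scaled CPM, with permutation p of 0.00018 and 0.0009 and adjusted values of 0.00378 and 0.0189 over the 21 pairs. Both genes had lower means in cKO, which adds to a pooled correlation. Within the 6 cKO animals r was 0.677, and within the 6 WT animals it was 0.796. Without WT 2 and WT 6, the animals farthest from the median of Gabrb1, r was 0.830. Genes outside the family had a higher r with each, such as Prkdc with Gabrb1 (0.973) and Lmbrd2 with Gabrb2 (0.973). How often other pairs of genes reach such an r was not counted.

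None of the other 20 pairs passed. Their r ran between -0.413, for Gabra2 and Gabrd, and 0.599, for Gabra4 and Gabrd. Gabra4 and Gabrd encode subunits of one receptor in dentate granule cells, and their r was 0.230 without cKO 4 and WT 6. Gabra3 and Gabra5 had an r of -0.970 within the 6 cKO animals and 0.514 within the 6 WT animals, and a pooled r of -0.347. Of the r of all 21 pairs within a genotype, the -0.970 lay farthest from 0, and no r within a genotype was tested. Gabra3 was high in the cKO animals where Gabra5 was low. The library labelled cKO 1 held the lowest Gabra3 of cKO, at 44.1 CPM, and the highest Gabra5, at 162 CPM. Without the library labelled cKO 1 and cKO 4, the pooled r went from -0.347 to 0.078 over the remaining 10 animals, 6 of them WT. The r within cKO was not recomputed without these libraries.

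**Figure D5:**
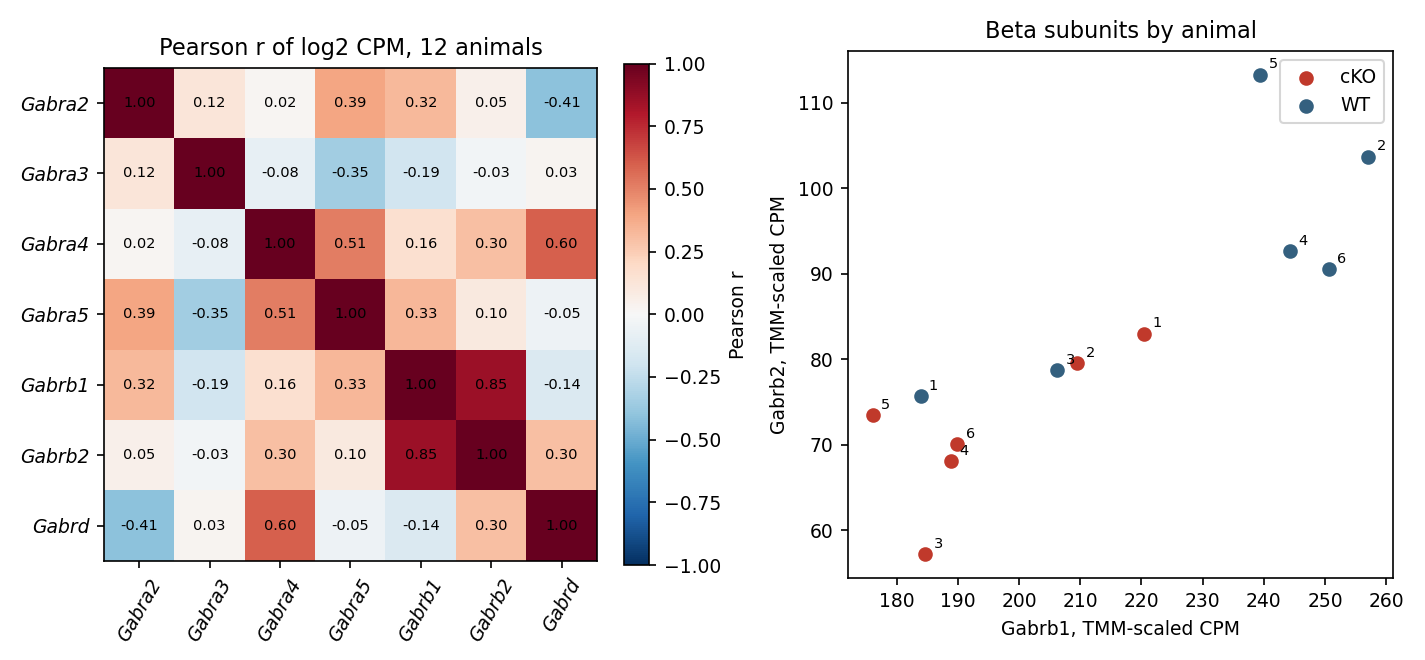
Pearson r of log2 TMM-scaled CPM over 12 animals for the 21 pairs of subunit genes as a colour map on the left, and the TMM-scaled CPM of Gabrb2 against Gabrb1 by numbered animal on the right, on axes that do not start at 0. Gabrb1 with Gabrb2 has the highest r, at 0.854, and Gabra2 with Gabrd the lowest, at -0.413.

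The genes with the most similar profile over the 12 animals were taken for each subunit from the 10331 genes with a mean of at least 10 CPM. They are given as a description, since the highest of so many correlations is high in any data and all genes share the same libraries. Closest to Gabrb2 were Lmbrd2 (r = 0.973), Ttbk2, a tau tubulin kinase (0.968), and Unc80, a part of the sodium leak channel (0.966). Closest to Gabrb1 were Prkdc, the DNA-dependent protein kinase (0.973), Dock4 (0.971) and Gtf2h2 (0.971). All of these genes near the beta genes were lower in cKO too. Their log2 fold changes ran from -0.36 for Prkdc to -0.12 for Gtf2h2, and none passed.

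Gabra4 was closest to Kcnab1, a potassium channel beta subunit (0.975), followed by Clvs2 (0.888) and Ppp1cb (0.866). Gabra3 was closest to Gap43, a growth cone protein (0.965), Syt5 (0.956) and Prkar1b, a regulatory subunit of protein kinase A (0.954). For Gabra5 these were Fam19a1 (0.969), Rab40b (0.959) and Abi1 (0.955). Gabrd had Tank (0.899), Tspan5 (0.884) and Kcnj2, an inward rectifier potassium channel (0.867). Gabra2 had Zkscan6 (0.903), Borcs6 (0.830) and Prr7 (0.828).

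Most of the 7 genes lie in clusters with other subunit genes, in the GRCm38 build. Gabra2 (chr5:70957597-71095849, minus strand), Gabra4 (chr5:71569749-71658308, minus strand) and Gabrb1 (chr5:71658113-72149037, plus strand) follow Gabrg1 on chromosome 5. Gabra5 (chr7:57407672-57510059, minus strand) lies beside Gabrg3 on chromosome 7. Gabrb2 (chr11:42419757-42629028, plus strand) lies beside Gabra6 on chromosome 11. Gabra3 (chrX:72432681-72656848, minus strand) lies between Gabre and Gabrq on the X chromosome. Gabrd (chr4:155384980-155398112, minus strand) has no other subunit gene near it.

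The pair closest on a chromosome was not the pair closest in profile. Gabra4 and Gabrb1 start head to head and overlap by 196 bases, 46 of them in exons of both, and their r over the 12 animals was 0.161. Gabrb1 and Gabrb2, with an r of 0.854, lie on different chromosomes. The sources used here name no strand setting, so reads from the bases shared by Gabra4 and Gabrb1, and from the 148 exon bases that Gabra5 shares with the antisense gene Gm9962, cannot be told apart. Gm9962 averaged 47.5 counts in cKO and 46.5 in WT, against at least 6359 counts of Gabra5 in every library.

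The start regions of the head-to-head pair are shown because the genes overlap at their starts and yet had an r of only 0.161. RefSeq places the Gabrb1 start at 71657921 and the Gabra4 start at 71658308. These 387 bases are not a gap, since each gene runs past the start of the other. GENCODE M21, used for the overlap above, places the Gabrb1 start at 71658113. Each window holds 300 bases, from 250 before the start to 50 after it, from RefSeq on GRCm38.p6, with each CG dinucleotide in capitals.
Gabra4, chr5:71658259-71658558, minus strand: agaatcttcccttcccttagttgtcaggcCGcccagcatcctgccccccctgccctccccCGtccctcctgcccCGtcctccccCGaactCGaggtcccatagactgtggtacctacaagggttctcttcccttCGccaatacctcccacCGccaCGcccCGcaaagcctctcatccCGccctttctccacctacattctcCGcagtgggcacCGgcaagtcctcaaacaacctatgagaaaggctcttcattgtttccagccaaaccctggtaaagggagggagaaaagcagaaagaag
Gabrb1, chr5:71657671-71657970, plus strand: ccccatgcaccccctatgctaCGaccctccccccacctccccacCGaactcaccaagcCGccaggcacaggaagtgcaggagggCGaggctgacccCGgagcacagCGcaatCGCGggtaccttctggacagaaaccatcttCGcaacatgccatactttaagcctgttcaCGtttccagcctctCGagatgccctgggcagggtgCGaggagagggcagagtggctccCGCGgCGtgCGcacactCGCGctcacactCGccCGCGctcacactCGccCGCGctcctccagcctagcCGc
The Gabra4 window holds 12 CG dinucleotides and the Gabrb1 window 25, where the median of 32851 such windows is 7. A table of windows matched 6 of the 7 genes, with 10 windows in all. A later start of Gabrb1 has a window with 9. Gabra2 also holds 25, Gabra5 holds 13 and the 3 windows of Gabrb2 hold 9 to 11. Both windows of Gabra3 hold 0. The letters TATAAA, searched on both strands and held by 13.6% of all windows, lie 30 bases before the first start of Gabrb2. The windows of Gabra3 overlap each other and hold the same single match, on the strand opposite to the gene.

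The cluster removed in cKO encodes 69 mature miRNAs between Mir379 and Mir410 in RefSeq, with 63 distinct seeds. A seed is bases 2 to 8 of a miRNA, and its match is the reverse complement of these 7 bases in a 3′ UTR. Matches on the transcript strand were counted in the longest annotated 3′ UTR of each gene. Gabrb1 holds 58 matches in a 3′ UTR of 12228 bases, which is longer than that of 99.8% of the 15274 genes compared. Gabra2 holds 17, Gabra3 and Gabrb2 hold 6 each, Gabra4 holds 5, and Gabra5 and Gabrd hold 3 each.

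Per kilobase of 3′ UTR the members lay on both sides of the median gene, at 3.93 matches per kb. Gabrd had 7.13 per kb in a 3′ UTR of 421 bases, Gabrb1 4.74 and Gabra2 4.04. Gabra5 had 3.21, Gabra3 3.05, Gabrb2 2.81 and Gabra4 2.56 per kb. At least 1 match was present in 89.3% of all genes compared. The beta genes, with the lowest fold changes, were thus above the median for Gabrb1 and below it for Gabrb2. A match is a run of letters and was not tested for binding.

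The 4 seeds with a match in 3 or more of the 7 genes were those of miR-494-3p, miR-300-5p, miR-679-5p and miR-299a-3p, the last in Gabra2, Gabrb1 and Gabrd. The first 3 are shown, since between them they reach both beta genes and all 4 alpha genes, as mature miRNAs from RefSeq on GRCm38.p6, 5′ to 3′, with the seed in capitals.
mmu-miR-494-3p, chr12:109715367-109715388, plus strand: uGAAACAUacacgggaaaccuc
mmu-miR-300-5p, chr12:109724318-109724339, plus strand: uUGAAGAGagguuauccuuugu
mmu-miR-679-5p, chr12:109715587-109715608, plus strand: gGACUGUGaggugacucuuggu
The match of miR-494-3p, ATGTTTC, is present in Gabra3, Gabra4, Gabra5 and Gabrb1, and in 15.1% of all genes compared. The match of miR-300-5p, CTCTTCA, is present in Gabra2, Gabra4, Gabrb1 and Gabrb2, and in 16.7% of genes. The match of miR-679-5p, CACAGTC, is present in Gabra2, Gabrb1 and Gabrb2, and in 12% of genes. The 3′ UTRs differ in length, and longer ones hold more matches.

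Both beta genes hold matches of miR-300-5p and miR-679-5p that are followed by A, a form known for stronger repression. The log2 fold change was -0.24 for Gabrb1 and -0.36 for Gabrb2, both lower in cKO, and a link with these matches was not tested. The matches are shown with their surroundings, read 5′ to 3′ on the transcript strand of GRCm38, with the match and the A in capitals.
Gabrb1, miR-300-5p, chr5:72144508-72144537, plus strand: gactcctgctcCTCTTCAAgcaatgacgtg
Gabrb2, miR-300-5p, chr11:42626916-42626945, plus strand: ggactggattcCTCTTCAAacagttgtaca
Gabrb1, miR-679-5p, chr5:72148771-72148800, plus strand: tcacagctcccCACAGTCAcggggctgtcc
Gabrb2, miR-679-5p, chr11:42627237-42627266, plus strand: attctctgagaCACAGTCAtttccaaacgc
Gabra2 holds the same pair of matches, and its level was 145 ± 18.1 CPM in cKO and 149 ± 27.7 CPM in WT.
Gabra2, miR-300-5p, chr5:70958449-70958478, minus strand: ggataagtaaaCTCTTCAAtaatatttcta
Gabra2, miR-679-5p, chr5:70961131-70961160, minus strand: tattggaatgtCACAGTCAttctattttta

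The match of miR-494-3p followed by A is shown for the 4 genes that hold it, 3 of them alpha subunits.
Gabra3, chrX:72434553-72434582, minus strand: gggctcccctcATGTTTCAggattcttttt
Gabra4, chr5:71570157-71570186, minus strand: tgatatttttgATGTTTCActtccagattt
Gabra5, chr7:57408441-57408470, minus strand: tgtaacttcaaATGTTTCAaggatgtaccc
Gabrb1, chr5:72139775-72139804, plus strand: cagagaaccctATGTTTCAcagtttgacag
The log2 fold changes of these genes were 0.02 for Gabra3, -0.03 for Gabra4, -0.04 for Gabra5 and -0.24 for Gabrb1, and none passed the test.

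The 12 other subunit genes held 8 that could be tested, of which 3 had a higher and 5 a lower mean in cKO, and none passed. Gabrg3, a gamma subunit, averaged 22.2 ± 2.75 CPM in cKO and 24.25 ± 1.99 CPM in WT (SD, n = 6 each). Its log2 fold change was -0.13, and the adjusted p was 0.667 by edgeR. The log2 fold change of Gabrg1, another gamma subunit, was -0.02. Gabre, Gabrq and Gabrr2 were each below 1 CPM on average in both genotypes.

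Partners of the receptor were counted in the same fit, from lists chosen for this tissue. Of 18 genes of clustering, assembly and trafficking, 7 had a higher and 11 a lower mean in cKO, and none passed after adjustment. Ank3, which encodes ankyrin-G of the axon initial segment, averaged 418 ± 20.8 CPM in cKO and 483 ± 49.7 CPM in WT, with an unadjusted p of 0.00521 and an adjusted p of 0.353 by edgeR. Dmd, which encodes dystrophin, had a log2 fold change of -0.14 and Slitrk3, a synaptic adhesion protein, of -0.09. The median of the list was -0.01, against 0.01 over all genes tested.

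Of 7 genes of GABA synthesis, release and uptake, 6 had a higher and 1 a lower mean in cKO, with a median log2 fold change of 0.04, and none passed. Abat, the enzyme that degrades GABA, was at 0.04, and so was Gad2, an enzyme that makes GABA. The chloride transporters Slc12a5 and Slc12a2 had log2 fold changes of -0.07 and 0.00 and did not pass. All 5 GABA-B receptor genes had lower means in cKO, with a median of -0.03, and none passed.

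Marker lists of the cell types in the tissue are set beside the subunits. All 8 dentate granule markers had a lower mean in cKO, against 46.6% of all genes tested. Their median log2 fold change was -0.17, and their summed level ran from 406 to 620 CPM in cKO and from 542 to 627 CPM in WT. Other lists were one-sided too. All 8 oligodendrocyte and all 6 neocortex markers were lower, and all 6 endothelial, 6 striatum and 8 choroid plexus markers were higher. Of 14 interneuron markers 10 had a higher mean in cKO, and their sum ran from 952 to 1182 CPM in cKO and from 966 to 1115 CPM in WT. Of 8 pan-neuronal markers 5 were lower, with sums of 5779 to 6631 CPM in cKO and 5896 to 6688 CPM in WT. Among 8 CA3 and CA2 pyramidal markers 6 were higher, with a median log2 fold change of 0.05. Among 6 CA1 pyramidal markers 5 were lower, with a median of -0.02. Of 7 smooth muscle and pericyte markers 6 were higher and 1 was lower. The sums of this list did not overlap, at 190.6 to 233 CPM in cKO and 155 to 187 CPM in WT. At an unadjusted p below 0.05 by edgeR, 5 of the 7 were higher, against 3.2% of all genes tested. Most of its genes, though not all, had every cKO library above every WT library. By single gene, 0.181% of all genes tested had every cKO library above every WT library. None of these lists had a gene that passed after adjustment. The part of these cell types in the level of any subunit was not tested.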

How the data were processed

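Bulk hippocampal RNA of 12 mice was sequenced, and the authors deposited estimated counts (expected counts) per gene symbol, with 1 column per animal and no scaling between libraries. Salmon 1.3.0 and GRCm38 are named in the submitters' processing notes. Annotation, strand setting and gene-level summing were not given in the sources used here. Counts were rounded to whole numbers, since 24.8% to 25.9% of the values of a library were not whole.

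Genotypes were compared over all 12 animals with the edgeR 4.0.16 quasi-likelihood test in R 4.3.3, with TMM scaling, filterByExpr (count minimum 10, total 15), genotype alone in the model and Benjamini-Hochberg adjustment over 19325 genes at a threshold of 0.05. Levels are TMM-scaled CPM. Log2 ratios were tested by all 924 splits of 6 against 6, correlations by 100000 resamples, two-sided, each adjusted over 21 pairs. The fit was tested on simulated counts. Alternatives were other scalings, DESeq2 1.42.0, limma-voom (limma 3.58.1), other filters, each animal left out, a replicate block and, chosen after seeing the data, leaving out the 3 libraries lowest in choroid plexus genes.

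Named genes were all 7 subunits, the 3 genes of highest r for each, and up to 4 genes of smallest p from each pathway list. Genes that mark the tissue or the libraries standing apart, Mirg, Emx1 and B830012L14Rik among them, were named beside this rule after values were seen. The subunits, lists and tests were chosen with earlier results of these data known. Gene lengths, positions and 3′ UTRs come from GENCODE M21, which held 32874 of the 33250 symbols as a single gene, and miRNAs and start regions from RefSeq. Protein sequences were not used here, and some single genes are not reported.

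No 2 libraries of a genotype agreed within counting noise (the lowest chi-square per degree of freedom was 8.50). The labels number the animals 1 to 6 in each genotype, which p-values treat as separate animals.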

Additional observations from a re-analysis of the deposited data

Results flagged for a closer look

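Gabrd in cKO 5, at 23.8 CPM, lay far from the other 5 cKO animals, at 18.9 to 20.7 CPM. Its gap to the nearest animal was 0.625 of the whole cKO range, just past the limit for 6 samples. Of 30 groups checked, over 15 subunit genes and both genotypes, this was the 1 that stood out, and chance alone picks out about 1 group in 20. The WT range of 18.1 to 24.8 CPM holds the value. No cause was tested.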

How the results depend on the processing

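The number of the 7 subunit genes that passed was 0 under every scaling, filter, test and left-out animal tried. Over all genes, 2 passed with edgeR, against 76 with DESeq2, 0 with limma-voom, 1 with no filter, 1 with a filter of 1 CPM in 6 libraries, 0 with a replicate block, 0 without the 3 libraries lowest in choroid plexus genes, and 0 to 6 with 1 animal left out, the highest without cKO 1; the cause was not tested. By DESeq2 the adjusted p of Gabrb2 was 0.0774 and that of Gabrb1 0.166. Of 147 recomputed fold changes 138 kept their direction, including all of Gabrb1 (-0.30 to -0.21, adjusted p 0.0714 to 0.703), Gabrb2 (-0.42 to -0.30, 0.0774 to 0.702) and Gabrd (-0.16 to -0.07). Of the 9 reversals, 1 was Gabra3 under limma-voom (-0.001031). Without the 3 choroid-low libraries Gabra2 (0.10), Gabra4 (0.0196) and Gabra5 (0.0301) reversed. With 1 animal left out Gabra2 reversed 1 time (0.0625, without WT 2) and Gabra3 4 times (-0.0611 to -0.0023). All values with 1 animal left out ran from -0.10 to 0.0625 for Gabra2 and from -0.0611 to 0.0978 for Gabra3. The number of the 7 genes at an unadjusted p below 0.05 was 2 throughout, except 3 without cKO 5 or without WT 6. No ratio between subunits passed under any setting. The number of ratios at an unadjusted p below 0.05 was 2. It was 0 with the replicate block and 0 to 6 with 1 animal left out. With the replicate block the ratios had a sign-flip test whose smallest possible p is 0.0312. A ratio could pass its adjustment only if most ratios sat at that p, so the 0 passing there decides nothing about single ratios. Leaving out the 3 choroid-low libraries also leaves fewer splits, which makes a pass harder to reach. The r of Gabrb1 with Gabrb2 stayed between 0.808 and 0.878. Animals of the same number did not pair, since 2 of 6 correlations were over 0.1 and 1 of 6 animals was closest to its own number; with the replicate block the log2 fold change was -0.24 for Gabrb1 (adjusted p 0.511) and -0.36 for Gabrb2 (0.483), and 0 ratios passed.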
